A study of Mus musculus with 6 samples.

Results

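The Ifitm genes encode small interferon-induced transmembrane proteins. They were followed here in mouse tumours under a butanediol diet and under immune checkpoint blockade. The members were the 4 genes Ifitm1, Ifitm2, Ifitm3 and Ifitm6, taken by symbol from the 18848 genes of the deposited expression table. The family was selected on Ifitm3 levels: summed counts of this gene were lower in the macrophages deposited as M1 of the butanediol group than of the standard diet group, so that contrast, and every value that uses those butanediol tumours for Ifitm3 in these cells, is described below without a test.

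Tumours of PPS-ICBR, a prostate cancer line labelled as resistant to checkpoint blockade, were grown in C57Bl6 mice, and 3 tumours per group were profiled with 10x single-cell RNA sequencing. The SD group ate standard chow. The BD group ate chow made up with 1,3-butanediol, water and saccharine. The labels give saccharine for the butanediol chow and not for the standard chow. The ICB group had standard chow and PD-1 plus CTLA-4 treatment at 0.2 mg biweekly, and the BD+ICB group had both the butanediol chow and that treatment. All 12 tumours thus carried the same line in the same strain, and the labels name tumours rather than mice. Dissociated tumours were run on Percoll and the layer of leukocytes was taken, so cancer and stromal cells are those that reached it.

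SD and BD tumours were sequenced as 1 library and ICB and BD+ICB tumours as another. Diet was therefore compared within a library, while blockade and library cannot be told apart. Listed tumour sizes were 2348, 1216 and 870 in SD and 178, 203 and 172 in BD tumours. They were 1116, 995 and 289 in ICB and 48, 23 and 90 in BD+ICB tumours. Sizes did not overlap between the diets within either library, nor between BD+ICB and BD tumours. The part of tumour size in any difference below was not tested. The 5749 deposited cells, in 19 deposited classes, gave 70 to 913 cells and 510984 to 13007506 unique molecular identifiers (UMIs) per tumour. Of 36632 barcodes, 1931 occurred in both libraries, among them the barcodes of 186 deposited cells. Those cells held a median of 99271 UMIs against 7094 for the other cells, and 110 of the 140 Prof_cancer and 47 of the 241 Mesenchymal cells were among them. For the Mesenchymal and Prof_cancer classes and for whole tumours, differences are given with and without these cells where enough cells were left. The levels, shares and correlations below hold all cells unless stated. The deposited class names were kept, although the DC_Nos2+ class reached 20 CPM (counts per 1000000, taken over the summed UMIs of a tumour and class) for 12 of 12 macrophage markers and for 0 of 10 dendritic cell markers. In the DC _other class 5 of 10 dendritic and 11 of 12 macrophage markers reached that level, and the Mac_M1, NK and Neu_Cxcr2+ classes reached it for 12 of 12 macrophage, 7 of 7 NK and 10 of 10 neutrophil markers. That level is low, since the collagen gene Col1a1 averaged 41.8 CPM in the DC _other class and 183 CPM in Hilpda+ neutrophils. Reaching 20 CPM therefore does not by itself show that a class expresses a marker, here or below.

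Interferons signal through surface receptors and Jak kinases to transcription factors, which bind interferon-stimulated response elements and gamma-activated sites near target genes. Ifitm proteins are classical products of that pathway and sit in cell membranes, where they hinder the fusion of enveloped viruses with the host cell. Ifitm1 is found mainly at the cell surface, and Ifitm2 and Ifitm3 mainly in endosomal membranes, with Ifitm3 the member best known for restricting influenza virus. Ifitm6 is less well described. In myeloid cells several members are also transcribed without infection.

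The members lie close together on mouse chromosome 7 (GRCm38.p6, the mm10 assembly). Ifitm2 (ENSMUSG00000060591) spans 140954837 to 140959686 on the minus strand, Ifitm1 (ENSMUSG00000025491) spans 140967429 to 140969827 on the plus strand, Ifitm3 (ENSMUSG00000025492) spans 141009590 to 141010744 on the minus strand and Ifitm6 (ENSMUSG00000059108) spans 141015812 to 141016892 on the minus strand. A pseudogene, Gm7514, and a long non-coding RNA, Gm33504, are annotated between Ifitm1 and Ifitm3. Because the members are close paralogs, reads could match more than 1 of them, and the sources used here do not give how such reads were counted.

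The promoters are shown because the members respond to interferon and differed from each other below. The RefSeq windows ran from 250 bases before to 50 bases after the annotated start, and both strands were searched for the interferon-stimulated response element GAAANNGAAA and the gamma-activated site TTCNNNGAA. The response element was present in 3.44% and the gamma-activated site in 8.30% of all 32851 mouse promoter windows of this length. The lines below give the 120 bases before each start, and for Ifitm3 also the first 30 transcribed bases, 5′ to 3′ on the gene's strand, with matches in capitals.
Ifitm1, before the start, chr7:140967956-140968075, plus strand: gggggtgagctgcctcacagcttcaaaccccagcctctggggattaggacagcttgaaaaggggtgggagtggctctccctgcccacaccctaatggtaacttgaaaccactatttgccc
Ifitm2, before the start, chr7:140955962-140956081, minus strand: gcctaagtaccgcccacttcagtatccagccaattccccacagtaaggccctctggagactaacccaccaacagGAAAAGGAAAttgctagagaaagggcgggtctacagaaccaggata
Ifitm3, before the start, chr7:141010745-141010864, minus strand: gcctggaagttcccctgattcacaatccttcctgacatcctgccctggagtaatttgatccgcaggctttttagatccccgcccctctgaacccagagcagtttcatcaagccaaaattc
Ifitm3, from the start, chr7:141010715-141010744, minus strand: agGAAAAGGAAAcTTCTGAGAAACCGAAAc
Ifitm6, before the start, chr7:141016893-141017012, minus strand: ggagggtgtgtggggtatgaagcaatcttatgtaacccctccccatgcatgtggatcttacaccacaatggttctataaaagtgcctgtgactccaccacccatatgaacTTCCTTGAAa

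Ifitm2 held 1 response element, GAAAAGGAAA, from -46 to -37. Ifitm3 held the same 10 letters from 3 to 12 after its start and a second element, GAAACCGAAA, from 20 to 29, with a gamma-activated site, TTCTGAGAA, from 14 to 22 that overlaps the latter. Ifitm6 held a gamma-activated site, TTCCTTGAA, from -10 to -2. No match was found in the Ifitm1 window. The starts used for Ifitm1 and for Ifitm2 lie inside the annotated spans of these genes, so their windows are those of 1 start each. These are matches of letters in these windows and not measured binding sites.

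All 4 members were detected, with 77793 UMIs of Ifitm1 in 3846 cells, 67918 of Ifitm2 in 4986 cells, 100416 of Ifitm3 in 4670 cells and 1865 of Ifitm6 in 674 cells. Of the other family genes, Ifitm5 had 104 UMIs, Ifitm7 had 3 and Ifitm10 had 248, and these were not followed further. Levels are given in CPM of the UMIs summed over the cells of 1 class in 1 tumour, for tumours with at least 10 cells of the class. That left 129 tumour and class sums in 18 classes, and none for cDC_Batf3+. The family was chosen with its pattern known, so the levels by class are a description.

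Over all tumours Ifitm3 was highest in the Vcan+ monocytes, at 3441 ± 299.9 CPM (SD, n = 7 tumours), and in the DC _other class, at 3311 ± 971 CPM (n = 7). Vcan+ monocytes came from blockade tumours in all but 1 case, and DC _other ranked first for Ifitm3 among tumours under blockade, at 3697 ± 527 CPM (n = 4) against 3511 ± 258 CPM (n = 6), and also among those without blockade, where classes needed 2 tumours. The Ifit+ neutrophils followed with 2764 ± 894 CPM (n = 4), and the single tumour with 10 or more Ifit+ monocytes stood at 3154 CPM. The Nos2+ cells named dendritic had 1959 ± 319 CPM (n = 6), M1 macrophages 1536 ± 383 CPM (n = 10) and Mmp+ M2 macrophages 1476 ± 528 CPM (n = 12). Ifitm3 was also counted in non-immune classes, at 1361 ± 318 CPM in Mesenchymal cells (n = 6) and 1318 ± 276 CPM in proliferating cancer cells (n = 7). The part of RNA from other cells in these values was not tested. In Cxcr2+ neutrophils the level was 932 ± 353 CPM (n = 11) and in Hilpda+ neutrophils 712 ± 369 CPM (n = 8). Lymphocytes were at the bottom, with 384 ± 155 CPM in CD4 T cells (n = 6), 353 ± 195 CPM in NK cells (n = 6) and 191 ± 99.9 CPM in CD8 T cells (n = 8).

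Ifitm1 had another order. Its highest level was in the DC _other class, at 8028 ± 1871 CPM (n = 7), followed by Cxcr2+ neutrophils at 3939 ± 2183 CPM (n = 11), Ifit+ neutrophils at 2156 ± 543 CPM (n = 4) and Hilpda+ neutrophils at 2313 ± 1388 CPM (n = 8), the order being that of mean log2(CPM + 1). CD8 T cells, low for Ifitm3, had 895 ± 646 CPM (n = 8) of Ifitm1. The cells of non-immune classes were low, with 156 ± 97.6 CPM in Mesenchymal cells (n = 6) and 52.8 ± 23.4 CPM in proliferating cancer cells (n = 7). Spread between tumours was wide in places, and Ifitm1 in Mmp+ M2 macrophages ran from 21.9 to 2104 CPM over 12 tumours.

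Over all tumours Ifitm2 was highest in Cxcr2+ neutrophils, at 3997 ± 2041 CPM (n = 11), then in the DC _other class at 2896 ± 609 CPM (n = 7) and in Vcan+ monocytes at 2124 ± 572 CPM (n = 7). Among tumours under blockade DC _other ranked first for Ifitm2, at 2897 ± 836 CPM (n = 4) against 2781 ± 838 CPM in Cxcr2+ neutrophils (n = 6). Ifitm2 stood at 754 ± 106 CPM in Mesenchymal cells (n = 6) and 477 ± 98.9 CPM in proliferating cancer cells. Ifitm6 reached 217 ± 118 CPM in Vcan+ monocytes (n = 7), 139 ± 45.3 CPM in the DC _other class (n = 7), 104 ± 90.9 CPM in Ifit+ neutrophils (n = 4) and 156 ± 182 CPM in Cxcr2+ neutrophils (n = 11). The Cxcr2+ values ran from 0 to 642 CPM. The 2 BD tumours among them stood at 0 and 642 CPM, with a UMI in a mean of 3.33% of cells. Ifitm6 was at 25.4 CPM in the Nos2+ class, 17.4 CPM in Hilpda+ neutrophils, 14.7 CPM in Mmp+ M2 macrophages and 6.54 CPM in the 1 tumour with Ifit+ monocytes, and stood at 2.22 CPM in CD8 T cells and 0.898 CPM in NK cells. Without the shared-barcode cells, SD replicate 1 was the only tumour left with 10 or more proliferating cancer cells, at 1014 CPM of Ifitm3, 594 CPM of Ifitm2 and 60.0 CPM of Ifitm1 from 12 cells. Mesenchymal cells without shared barcodes were at 1361 ± 422 CPM of Ifitm3, 843 ± 176 CPM of Ifitm2 and 246 ± 108 CPM of Ifitm1 (n = 5). For none of the 4 members did any pair of neighbouring classes in the order differ by more than the sum of their SDs, among the 16 classes with 2 or more tumours.

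**Figure D1:**
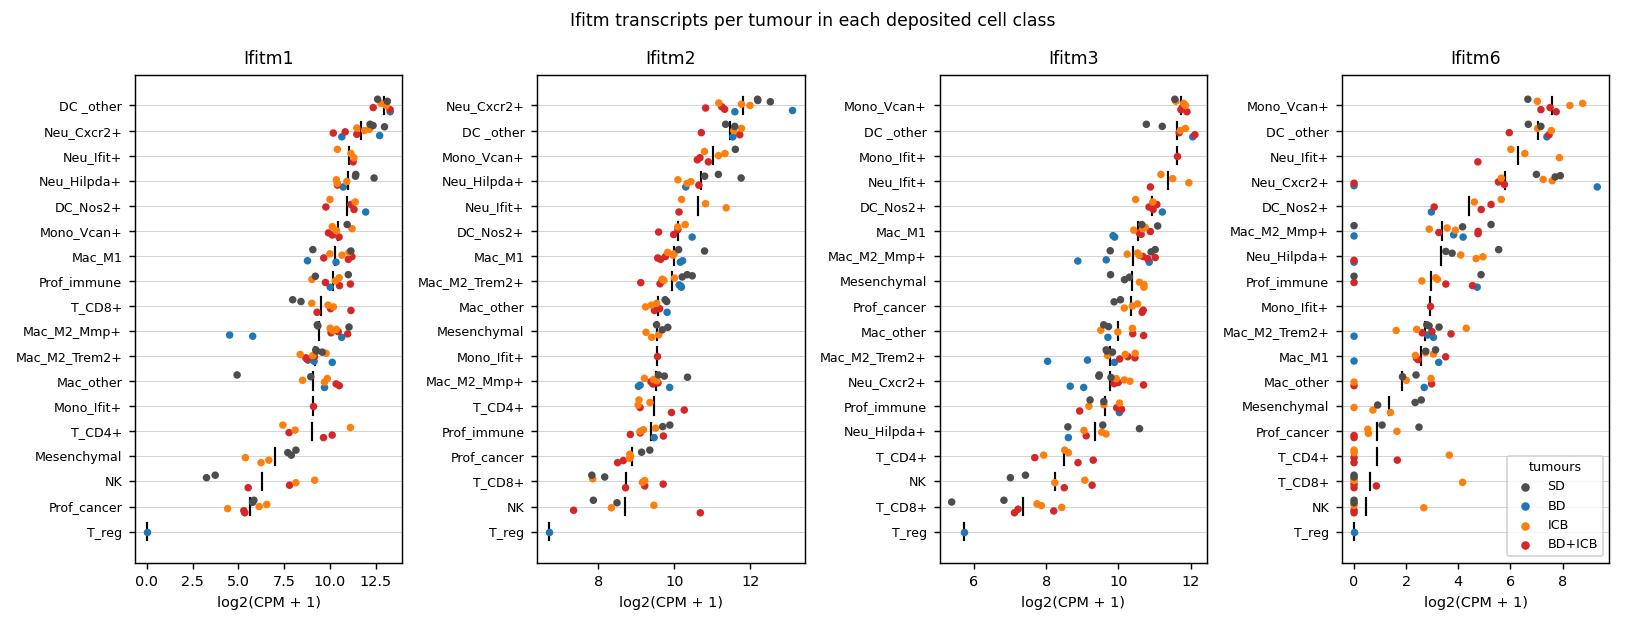
Level of each Ifitm gene in each deposited class, as log2(CPM + 1) of summed UMIs, with 1 point per tumour coloured by group and a bar at the mean. Classes are ordered by that mean in each panel: over all tumours Ifitm3 is led by Vcan+ monocytes and Ifitm1 by the DC _other class, and proliferating cancer cells are high in the Ifitm3 panel and near the bottom of the Ifitm1 panel.

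The share of cells with a UMI gave a similar order once depth was made equal. After each cell was thinned to 1000 UMIs, which left out 83 shallower cells, Ifitm3 was found in 93.2% of Vcan+ monocytes and 13.7% of CD8 T cells, against 99.9% and 37.2% before thinning (means over tumours). Ifitm1 was found in 90.6% of DC _other cells and 6.97% of NK cells after thinning, against 97.3% and 21.7% before. As a gauge of free RNA, the neutrophil gene S100a9 had a UMI in 12.01% of CD8 T cells at a median of 6290 UMIs per cell and in 94.1% of Cxcr2+ neutrophils at 2409. It had a UMI in 52.8% of Mesenchymal cells at 17978.5 and in 51.2% of proliferating cancer cells at 109575. Its mean levels there were 716 and 298 CPM. Ifitm6 had a UMI in 0.37% of CD8 T cells by the same count over all cells, and no expression is read from that share.

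The make-up of the family therefore changed from class to class. Shares of the 4 members' UMIs are compared here across classes for 1 member at a time, and not between members. Ifitm3 made up 70.7% ± 8.0 of the family's UMIs in proliferating cancer cells, 59.4% ± 10.2 in Mesenchymal cells and 48.3% ± 7.2 in Vcan+ monocytes (SD over tumours). Without the cells of shared barcode the Ifitm3 share was 54.9% ± 9.1 in Mesenchymal cells (n = 5) and 60.6% in the 1 tumour left with proliferating cancer cells. In Cxcr2+ neutrophils its share was 12.7% ± 7.3, in CD8 T cells 13.2% ± 5.8 and in Hilpda+ neutrophils 15.3% ± 4.6. The Ifit+ neutrophils, by contrast, stood at 41.2% ± 5.3. Ifitm1 made up 55.7% ± 4.3 in the DC _other class and 54.0% ± 8.2 in CD8 T cells, but 2.8% ± 1.2 in proliferating cancer cells. Ifitm6 did not pass a mean share of 2.9%, its value in Vcan+ monocytes.

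**Figure D2:**
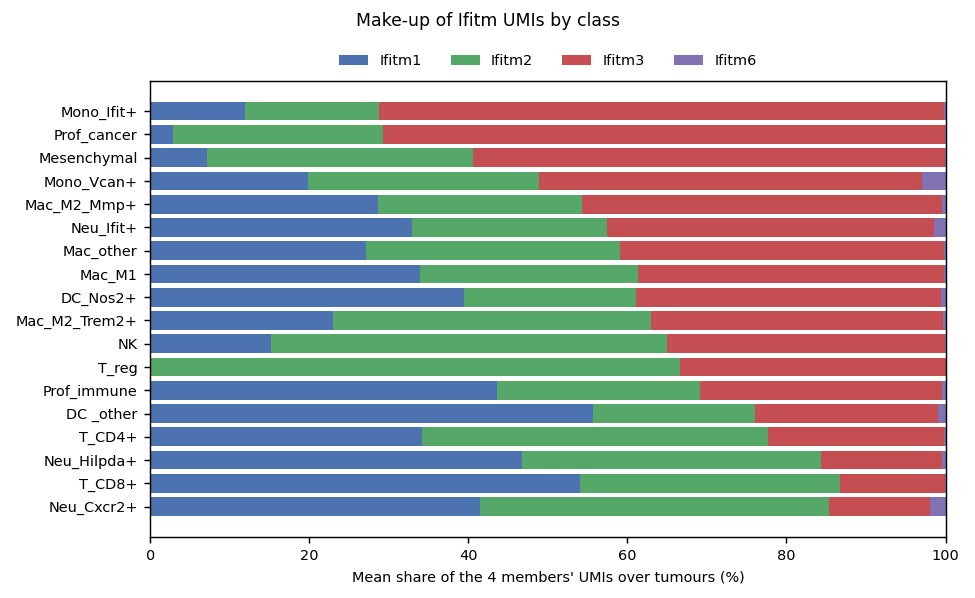
Mean share of the 4 members' summed UMIs, in percent over tumours, contributed by Ifitm1, Ifitm2, Ifitm3 and Ifitm6 in each class, ordered by the Ifitm3 share. Ifitm3 fills 70.7% of the bar of proliferating cancer cells and 12.7% of that of Cxcr2+ neutrophils; the Mono_Ifit+ and T_reg bars rest on 1 tumour each.

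Where the transcripts of a tumour came from depended on both level and class size. On average over the 12 tumours, 19.8% ± 15.8 of Ifitm1 UMIs came from DC _other cells, which were 2.6% of the cells. For Ifitm3 the largest mean source was proliferating cancer cells, with 16.4% ± 9.4 of the UMIs from 2.1% of the cells, which held 17.3% of all UMIs. Without the cells of shared barcode that class gave 2.9% ± 4.5 of Ifitm3 UMIs. Vcan+ monocytes gave 35.7% ± 27.1 and Cxcr2+ neutrophils 24.0% ± 29.9 of Ifitm6 UMIs. The Cxcr2+ share ran from 0% to 91.7% over the tumours. For Ifitm2 the largest mean source was Trem2+ M2 macrophages, with 13.8% ± 11.9.

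Blockade on the butanediol diet was compared between BD+ICB and BD tumours. Counts were tested with edgeR's quasi-likelihood test, with p-values adjusted over all genes of a class and contrast and called under 0.05. Ifitm3 was higher in the BD+ICB than in the BD tumours in Cxcr2+ neutrophils. Leaving out Ifitm3 in M1 macrophages, whose BD values led to the choice of the family, this was the 1 called of 12 member and class pairs, where 2.29% of all 19434 gene and class pairs were called. BD replicate 3, whose M1 macrophages are part of the choosing values, is also in the BD group of the Cxcr2+ neutrophils. Both M2 macrophage classes share BD tumours with those values too. The Ifitm3 tests of these classes are therefore not independent of the choice of the family, and no conclusion is drawn from the call in Cxcr2+ neutrophils. Ifitm6 passed the filter on low counts in 1 of the 4 classes.

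In M1 macrophages Ifitm3 stood at 952 and 924 CPM in BD tumours, and at 1584, 1526 and 1889 CPM in BD+ICB tumours. The groups did not overlap, and the ICB tumours, at 1374, 1624 and 1711 CPM, and the SD tumours, at 2173 and 1602 CPM, lay with the BD+ICB tumours. The log2 difference of BD+ICB from BD was 0.86. The BD tumours in it are the ones whose low Ifitm3 led to the choice of the family, so the difference is a description and no test is given. Ifitm2 went the other way in these cells, from 1142 and 1189.5 CPM to 796, 755 and 869 CPM, and was not called (-0.50 ± 0.16, adjusted p = 0.136). Median depth in the class was 7823 and 9551.5 UMIs per cell in BD tumours, against 14184.5 to 14999 in BD+ICB, and the summed macrophage markers ran from 10713 to 15242 CPM and from 7214 to 8741 CPM. The part of depth or of cell make-up in the Ifitm3 difference was not tested.

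Cxcr2+ neutrophils showed the largest Ifitm3 difference of the 4 classes. The BD tumours held 525 and 405 CPM, from 18 and 10 UMIs, against 1657, 942 and 1020.1 CPM in the BD+ICB tumours. The log2 fold change was 1.57 ± 0.36 (SE, edgeR adjusted p = 0.0072), and the adjusted p rose to 0.0554 without BD replicate 2 and to 0.0813 without BD replicate 3. SD tumours, at 887, 703 and 708 CPM, and ICB tumours, at 1277, 1148 and 982 CPM, stood above both BD values. Ifitm2, at 3094 and 8875 CPM in BD and 2566, 1812 and 2434 CPM in BD+ICB, was not called (-1.14 ± 0.34, adjusted p = 0.0708). The summed neutrophil markers differed as well, from 107285 to 123354 CPM in BD and from 44133 to 83569 CPM in BD+ICB, and their part was not tested.

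Trem2+ M2 macrophages had the same signs without a call. Ifitm3 was at 946, 262 and 565 CPM in BD and at 1049, 1405 and 1227 CPM in BD+ICB, groups that did not overlap (1.11 ± 0.32, adjusted p = 0.0752). Ifitm2 was at 1164, 1151 and 1118 CPM and at 787, 554 and 811 CPM (-0.61 ± 0.18, adjusted p = 0.0591). DESeq2 called Ifitm3 here (adjusted p = 0.0176) and also Ifitm2 in Cxcr2+ neutrophils (0.0327). Ifitm1 was called in none of the 4 classes, and in Mmp+ M2 macrophages its BD values of 1597, 53.8 and 21.9 CPM, the latter 2 from 7 and 5 UMIs, spread too widely to compare.

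**Figure D3:**
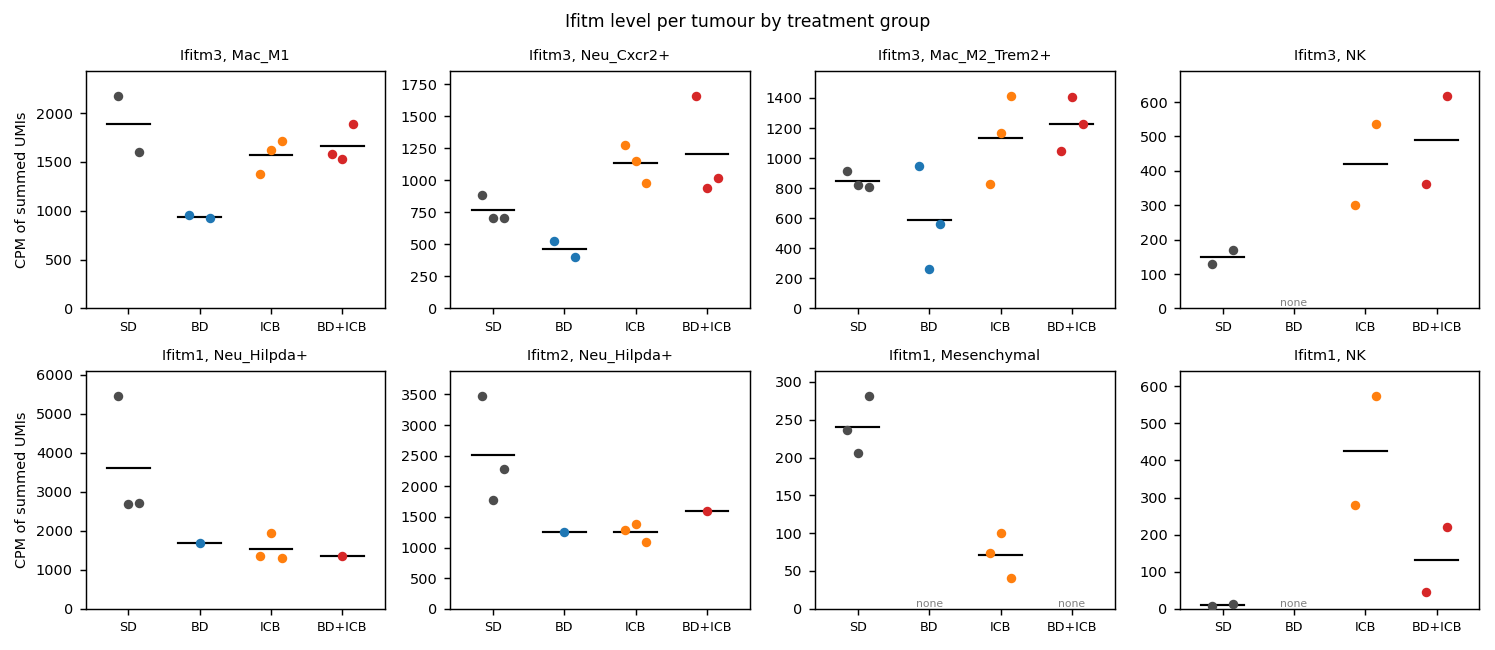
Level of a member per tumour in CPM of summed UMIs, by treatment group, in 8 pairs of gene and class; each point is a tumour with at least 10 cells of the class and the bar is the group mean. In M1 macrophages the BD points sit at 952 and 924 CPM below all other tumours, and in Hilpda+ neutrophils the SD points of Ifitm1 and Ifitm2 lie above all ICB points.

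Blockade on standard chow was compared between ICB and SD tumours. Here 5 of 38 member and class pairs were called, 2 higher and 3 lower, where 2.44% of 61706 gene and class pairs were called. The 38 pairs include Ifitm3 in M1 macrophages, whose SD tumours are also in the choosing contrast. That pair was not called and is a description. Ifitm1 and Ifitm2 fell in Hilpda+ neutrophils, Ifitm1 fell in Mesenchymal cells, and Ifitm1 and Ifitm3 rose in NK cells. Across classes the fitted difference was negative for Ifitm2 in 9 of 12, with a median of -0.49, and positive for Ifitm3 in 9 of 12, with a median of 0.36. The classes share their tumours, so the signs are not independent, and the Ifitm3 values include that of M1 macrophages, which was negative. Of these single-class differences 1 of Ifitm2 and 1 of Ifitm3 passed the test. For Ifitm1 the median was -0.06, with 5 classes positive and 7 negative, and Ifitm6 could be tested in 2 classes.

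Hilpda+ neutrophils, named for a lipid droplet protein induced by low oxygen, gave 5442, 2692 and 2721 CPM of Ifitm1 in SD tumours and 1350.4, 1939 and 1302 CPM in ICB tumours. Every ICB tumour was below every SD tumour (log2 fold change -1.17 ± 0.29, adjusted p = 0.033). Ifitm2 fell in the same cells, from 3469, 1781 and 2289 CPM to 1293, 1385 and 1093 CPM (-0.94 ± 0.23, adjusted p = 0.0177). Ifitm3 overlapped between the groups, at 1533, 388 and 758 CPM against 807, 743 and 528 CPM. Both calls ended with a stricter rule for assigning cells to tumours (adjusted p = 0.151 for Ifitm1 and 0.0706 for Ifitm2) and without ICB replicate 3 (0.0829 and 0.0746), and that of Ifitm1 also without ICB replicate 1 (0.0648). The summed neutrophil markers were lower in the ICB tumours too, at 37144 to 50708 CPM against 65280 to 75971 CPM, and their part was not tested.

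In Mesenchymal cells, which reached 20 CPM for 7 of 9 stromal markers, Ifitm1 was at 236, 206 and 281 CPM in SD tumours and at 74.2, 99.99 and 40.5 CPM in ICB tumours (-1.82 ± 0.25, adjusted p = 0.00557). Ifitm3 in the same cells was at 1151, 1264 and 879.8 CPM against 1668, 1670.4 and 1533 CPM, higher in every ICB tumour but not called (0.45 ± 0.14, adjusted p = 0.0906). The cells whose barcodes occur in both libraries bear on both values, since 36 of the 70 ICB and 4 of the 144 SD cells were of this kind. Without them the Ifitm1 difference shrank to -0.29 ± 0.65 (adjusted p = 0.851), with ICB values of 85.7, 373 and 109.7 CPM, the last from 9 cells and left out of the fit, whereas the Ifitm3 difference was 0.68 ± 0.16 (adjusted p = 0.0494). Macrophage markers summed to 2552 to 4540.1 CPM in the SD and to 549.6 to 1289.5 CPM in the ICB tumours, neutrophil markers to 718 to 4341 CPM and 37.6 to 1056 CPM. Median depth was 8959 to 10635 UMIs per cell in SD and 28725 to 62845 in ICB tumours, and the part of these markers and of depth was not tested.

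NK cells, natural killer lymphocytes, held little Ifitm1 in the 2 SD tumours with 10 or more of them. These gave 8.53 and 12.2 CPM, 1 UMI each from 21 and 13 cells, against 280.1 and 573 CPM in ICB tumours, 52 and 48 UMIs. Pooled, 100 against 2 UMIs make a ratio of 36.9 with a 95% interval of 9.96 to 309 that covers counting error only. The fitted log2 fold change was 5.06 ± 0.80 (adjusted p = 0.000297), and DESeq2 gave no adjusted p. The signal sat in few cells: 6 of 24 and 5 of 13 ICB cells had a UMI, and single cells held 25 and 20 of them. The remaining tumours had fewer than 10 NK cells and were outside the test, with 113 CPM in SD replicate 3 (4 UMIs in 6 cells) and 51.4 CPM in ICB replicate 2 (5 UMIs in 8 cells), in the opposite order to the tumours tested. In the ICB tumours the neutrophil markers summed to 83.5 and 1529.7 CPM and the dendritic cell markers to 11.9 and 129 CPM, against 36.7 and 59.7 CPM and 0 CPM in the SD tumours, and their part was not tested. Among the dendritic cell markers Flt3, Xcr1, Clec9a and Siglech were at 0 in all NK sums, so the 11.9 and 129 CPM come from other genes of that list.

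Ifitm3 in NK cells was at 128 and 171 CPM in the SD tumours and at 302 and 537 CPM in the ICB tumours, with 362 and 617 CPM in the BD+ICB tumours. The ICB against SD difference was 1.30 ± 0.36 (adjusted p = 0.00908), from 29 and 101 UMIs, and 33 of the 56 UMIs of ICB replicate 1 were in 1 cell. The replicate numbers paired the ICB and SD tumours by their correlations, and with the number as a block the adjusted p was 0.165. It was 0.637 under the stricter assignment rule, 0.463 without ICB replicate 3 and 0.263 without SD replicate 1.

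Other differences of this comparison stayed uncalled although their groups did not overlap. Groups did not overlap in 5 of 12 classes for Ifitm1, 8 of 12 for Ifitm2, 6 of 12 for Ifitm3 and 0 of 2 for Ifitm6. No such count over all genes is given, so nothing is read from groups that do not overlap, here or elsewhere. Ifitm3 in the DC _other class was at 2374 and 1749 CPM in SD and 3358 and 3702 CPM in ICB tumours (0.69 ± 0.17, adjusted p = 0.056; DESeq2 0.0479), and with the replicate block it was called (0.70, adjusted p = 0.000217). In proliferating cancer cells Ifitm3 was at 942 and 1064 CPM against 1145, 1338 and 1477 CPM (0.35 ± 0.11, adjusted p = 0.246), and Ifitm2 at 562 and 653 CPM against 452, 458 and 452 CPM (-0.47 ± 0.11, adjusted p = 0.0827). Neither difference could be computed without the cells of shared barcode, which leave 1 tumour of that class. Ifitm2 in Trem2+ M2 macrophages was at 1182, 1419 and 1293 CPM against 845, 819.7 and 1025 CPM (-0.57 ± 0.18, adjusted p = 0.0584). In CD8 T cells the largest Ifitm3 estimate, 1.85 ± 0.68, rested on 3 and 5 UMIs in the SD tumours (adjusted p = 0.275).

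**Figure D4:**
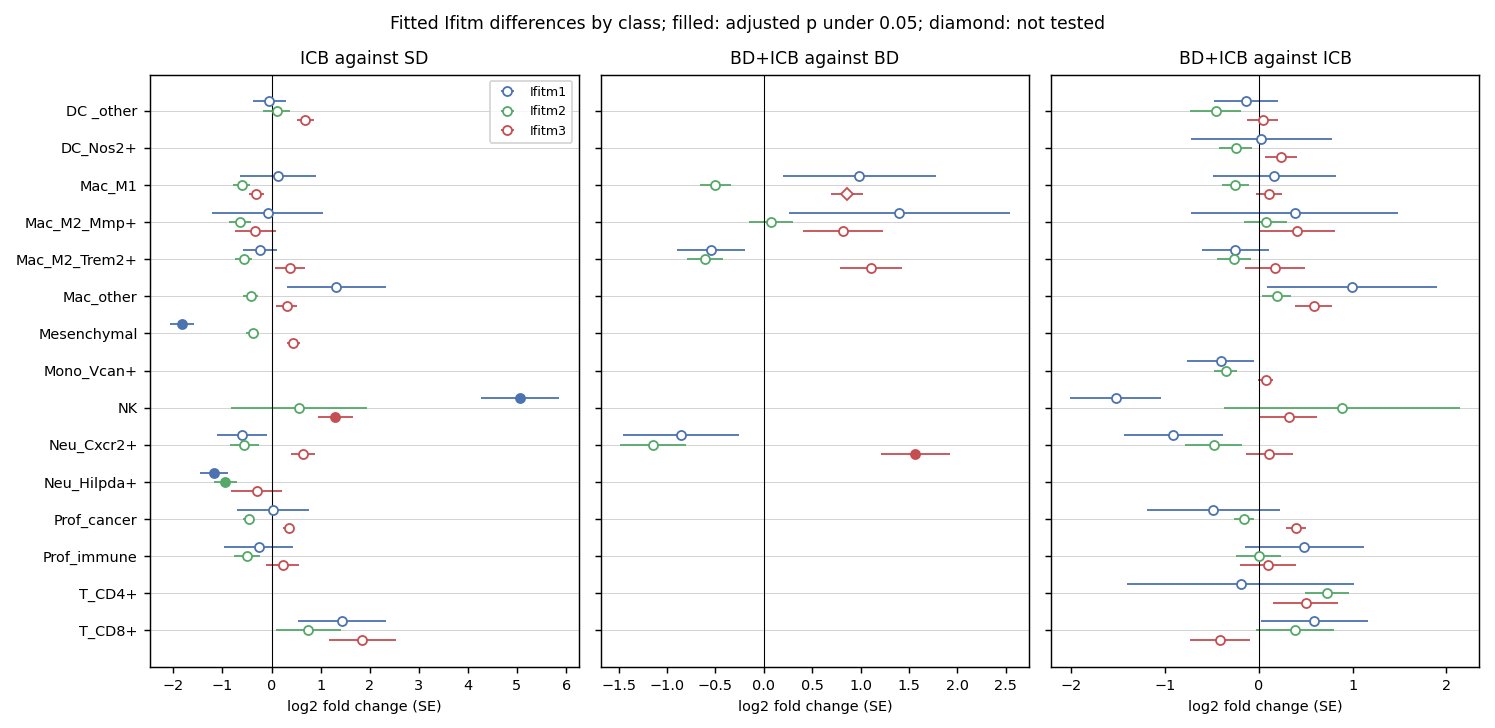
Fitted log2 fold change with its standard error for Ifitm1, Ifitm2 and Ifitm3 in every class tested, in 3 panels for ICB against SD, BD+ICB against BD and BD+ICB against ICB; each panel has its own horizontal scale and filled points have an adjusted p under 0.05. Filled points are 5 in the first panel, 1 in the second and 0 in the third, and the diamond is Ifitm3 in M1 macrophages, described without a test. The Ifitm3 point of M1 macrophages in the first panel is also a description.

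The diet comparison under blockade, BD+ICB against ICB, used tumours other than those that led to the choice of the family, and both groups come from 1 library. No member was called: 0 of 43 pairs with edgeR, where 0.307% of 66457 gene and class pairs were called, and 0 with DESeq2. Unadjusted p was under 0.05 for 5 pairs with edgeR and for 4 with DESeq2. A replicate block gave 2 calls, Ifitm3 in proliferating cancer cells (adjusted p = 0.0373) and Ifitm1 in NK cells (0.0215), and dropping the filter on low counts gave 3, Ifitm3 in proliferating cancer cells (0.00933), Ifitm2 in CD4 T cells (0.00578) and Ifitm1 in Cxcr2+ neutrophils (0.02). The share of all gene and class pairs called in these alternative settings is not given, so nothing is read from the added calls. Ifitm3 had a positive estimate in 12 of 13 classes. These classes share their tumours, so the signs are not independent, and no such count over all genes is given. Its median estimate was 0.17, with a range of -0.42 in CD8 T cells to 0.58 in the class Mac_other. In that class it was at 1661 and 1348 CPM in BD+ICB and at 1012, 729.6 and 1339.7 CPM in ICB tumours (0.58 ± 0.20, adjusted p = 0.811). In proliferating cancer cells it was at 1615 and 1647 CPM, above the ICB values given earlier (0.40 ± 0.11, adjusted p = 0.113). Of these cells 28 of 29 in BD+ICB and 64 of 69 in ICB tumours had shared barcodes, and no value could be computed without them. In M1 macrophages the BD+ICB and ICB values overlapped.

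The other members had no common direction under this diet comparison. Ifitm2 in Vcan+ monocytes was at 1906, 1558 and 1634 CPM in BD+ICB and 2295, 2582 and 1775 CPM in ICB tumours (-0.35 ± 0.12, adjusted p = 0.302). In CD4 T cells it was at 971, 1227 and 546 CPM against 527, 655 and 536 CPM (0.73 ± 0.24, adjusted p = 0.281). Ifitm1 in NK cells was at 45.2 and 220.5 CPM in BD+ICB tumours, 29 of the 30 UMIs of the latter in 1 cell, and was not called (-1.53 ± 0.48, adjusted p = 0.322). Without BD+ICB replicate 2 that pair was called at -3.07 (adjusted p = 0.000217), with 5 UMIs in the remaining tumour. Ifitm6 had negative estimates in each of the 4 classes tested.

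The diet comparison without blockade, BD against SD, is described only, because Ifitm3 in its M1 macrophages chose the family. Ifitm3 there was at 952 and 924 CPM in BD and 2173 and 1602 CPM in SD tumours, a log2 difference of -1.06, while the third tumour of either group had fewer than 10 of these cells. Of all gene and class pairs 0.0309% passed the threshold in this contrast, from which nothing is read for Ifitm3. The estimates of Ifitm3 in the other 3 classes were -0.82 in Cxcr2+ neutrophils, -0.74 in Mmp+ and -0.56 in Trem2+ M2 macrophages. The difference between the diet effects of the 2 libraries contains the same contrast and is also a description. It was 1.17 on the log2 scale for Ifitm3 in M1 macrophages, in a contrast in which 0.00515% of all pairs passed the threshold.

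Sums over all cells of a tumour join the level per cell with the make-up of the tumour, and in them fewer cells of a type and less RNA per cell cannot be told apart. Ifitm2 was at 1166, 1104 and 1329 CPM in BD tumours and at 896, 783 and 997 CPM in BD+ICB tumours, so every BD+ICB tumour was lower (-0.52 ± 0.13, edgeR adjusted p = 0.0253). In this contrast 8.8% of the 11988 genes were called, and this was the only call among 16 member and contrast pairs. The 16 include the Ifitm3 pairs with BD tumours, which are described below without a test. The call ended without the cells whose barcodes are shared (-0.23, adjusted p = 0.302) and without BD+ICB replicate 1 (0.0842), BD+ICB replicate 2 (0.0903) or BD replicate 3 (0.118). On standard chow Ifitm2 was at 1166, 1297 and 1295 CPM in SD and 811, 978 and 998 CPM in ICB tumours (-0.48 ± 0.13, adjusted p = 0.0569; DESeq2 0.0104; replicate block 0.0211), in a contrast with 2.89% of genes called. Without the cells of shared barcode this difference was -0.14 (adjusted p = 0.415).

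Ifitm3 in the same sums was at 1098, 984 and 998 CPM in SD, 1429, 491 and 847 CPM in BD, 1289.5, 1406 and 1579 CPM in ICB and 1788, 1584 and 1952 CPM in BD+ICB tumours. All ICB values were above all SD values and all BD+ICB values above all BD and ICB values. The differences were 0.42 ± 0.27 for ICB against SD (edgeR adjusted p = 0.45) and 0.43 ± 0.27 for BD+ICB against ICB (0.368), the latter in a contrast with 6.48% of genes called. The BD sums include the M1 macrophages whose low Ifitm3 led to the choice of the family. The difference of BD+ICB against BD, 0.86 ± 0.27, is therefore a description without a test. The SD sums include the M1 macrophages on the other side of that choice. Without the cells of shared barcode the differences were 0.54 for ICB against SD (edgeR adjusted p = 0.153), 0.33 for BD+ICB against ICB (0.629) and 0.96 for BD+ICB against BD. BD against SD, with 21.3% of genes past the threshold, gave -0.01 for Ifitm3. The spread of the BD tumours was wide: without BD replicate 1 the difference of BD+ICB against BD was 1.28. Ifitm6 stayed between 14.5 and 47.0 CPM in all 12 tumours, the highest value from 24 UMIs in BD replicate 2.

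**Figure D5:**
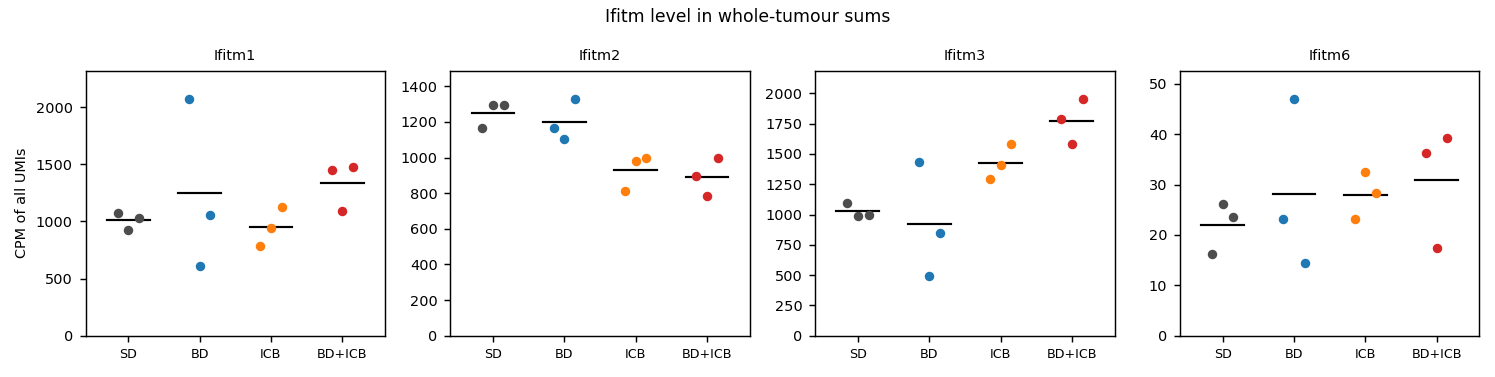
Level of each member in CPM of all UMIs of a tumour, 1 point per tumour and a bar at the group mean, by treatment group. Ifitm2 lies lower in the ICB and BD+ICB tumours, from 783 to 998 CPM, than in the SD and BD tumours, from 1104 to 1329 CPM, while Ifitm3 is highest in the BD+ICB tumours, from 1584 to 1952 CPM.

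Genes of the wider interferon pathway were counted beside the members. In M1 macrophages, BD+ICB against BD, 3 of 16 tested interferon-gamma response genes rose and none fell, where 1.04% of all 6701 genes rose, with a median log2 difference of 1.47 against 0.01 for all genes, and 1 of the 16 had 3 or fewer UMIs in a group. They were Psmb9 (1.58, edgeR adjusted p = 0.001) and Psmb8 (1.19, 0.00134), subunits of the immunoproteasome, and Tap1 (1.69, 0.00366), a peptide transporter of antigen presentation. Of the type I interferon response genes 3 of 19 rose, with a median of 1.05, namely Zbp1, Bst2 and Oasl2, and 3 of the 19 had 3 or fewer UMIs in a group. These cells share their BD tumours with the contrast that chose the family.

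In Cxcr2+ neutrophils of the same comparison 9 of 14 interferon-gamma and 4 of 17 type I response genes rose, where 2.84% of all genes did, although 12 and 11 of those tested had 3 or fewer UMIs in the BD tumours, so no size is given. In Trem2+ M2 macrophages 4 of 14 and 1 of 14 rose, where 1.76% of all genes did, and in Mmp+ M2 macrophages 6 of 13 and 0 of 17, where 0.783% did. In the Mmp+ class 2 of the 13 and 2 of the 17 had 3 or fewer UMIs in a group. Whole tumours showed 13 of 20 and 9 of 26 rising, where 3.9% of all genes rose, and 11 of 19 and 13 of 26 without the cells of shared barcode. In the whole-tumour sums of all cells 2 of the 20 had 3 or fewer UMIs in a group. Ifng, which encodes interferon-gamma and was the only 1 of 11 ligand genes that passed the filter, rose by 3.85 on the log2 scale there (adjusted p = 0.0339), from 11 UMIs in the BD tumours.

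On standard chow, ICB against SD, the same lists were counted. In Hilpda+ neutrophils 4 of 10 interferon-gamma and 1 of 11 type I response genes rose and none fell, where 3.95% of all genes rose, among them Cxcl10, a chemokine for T cells (2.21, adjusted p = 0.00267), and Trim30a (1.21, 0.0476). Of the 10 interferon-gamma genes 3 had 3 or fewer UMIs in a group. In Mesenchymal cells 8 of 15 and 7 of 16 rose, with medians of 2.05 and 1.08 against 0.01 for all genes, of which 1.96% rose, led by Gbp3 (2.82) and Zbp1 (2.37, both adjusted p = 0.000382), and 7 of 13 and 4 of 16 rose without the cells of shared barcode. In NK cells, where Ifitm1 and Ifitm3 rose, 1 of 7 and 0 of 4 did, against 0.927% of all genes, and 1 of the 7 had 3 or fewer UMIs in a group. In M1 macrophages 0 of 16 and 0 of 19 rose, against 0.0298% of all genes, and Ifitm3 there was 2173 and 1602 CPM in SD against 1374, 1624 and 1711 CPM in ICB tumours, overlapping, a description since these SD tumours are also in the choosing contrast.

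Under blockade, BD+ICB against ICB, 2 of 24 type I genes rose in Vcan+ monocytes, where 0.18% of all genes rose, Oasl1 (1.88, adjusted p = 0.0257) and Isg15 (0.73, 0.0397), while Ifitm3 in these cells was 3811, 3395 and 3491 CPM against 3710.0, 3577 and 3080.1 CPM and was not called. Of the 10 genes listed as Ifitm partners and membrane trafficking genes, 2 of 101 gene and class pairs rose and 4 fell on standard chow, ICB against SD, and 0 of 35 rose and 2 fell for BD+ICB against BD. Among all gene and class pairs 2.44% and 2.29% were called in these contrasts, in either direction. The falls included Cd63 and Bsg in Hilpda+ neutrophils on standard chow (-0.86 and -0.67, adjusted p = 0.0159 and 0.0441), and Bsg in Cxcr2+ neutrophils and Cd81 in Trem2+ M2 macrophages on butanediol (-1.70 and -0.97, adjusted p = 0.0214 and 0.0412). In whole tumours 0 of 10 rose and 1 fell for ICB against SD, 1 rose and 1 fell for BD+ICB against BD, 0 rose and 1 fell for BD+ICB against ICB, and 1 rose and 4 fell for BD against SD. Among all genes 2.89%, 8.8%, 6.48% and 21.3% passed the threshold in these contrasts, in that order and in either direction. Without the cells of shared barcode the rises and falls were 2 and 4, 1 and 3, 0 and 1, and 1 and 3. No share over all genes is given for that setting.

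Genes with the most similar pattern were ranked by Pearson's r of log2(CPM + 1) over the 129 tumour and class sums, among 7499 genes with a mean of at least 10 CPM. These values share libraries and depth and are given as a description. For Ifitm1 the closest were Synj1 (r = 0.73), Cdkn1a (0.72), Mcemp1 (0.71), Ifitm2 (0.71) and Csf2rb (0.71). For Ifitm2 they were Ndel1 (0.75), Gcnt2 (0.75), Mcemp1 (0.73), S100a11 (0.73) and H3f3a (0.73). For Ifitm3 they were Zfp516 (0.72), Tcf7l2 (0.69), Il13ra1 (0.69), St3gal1 (0.69) and Ptgs2 (0.69), and Ifitm1 stood at 0.42. Ifitm6 was closest to I830077J02Rik (0.71), Mcemp1 (0.69), Wfdc17 (0.67), Ifitm2 (0.67) and Cd300a (0.66).

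Once the mean of each class was subtracted, what remained was the variation between tumours within classes. Ifitm3 was then closest to Ifi203 (0.61), Irgm2 (0.59), Ube2l6 (0.59), B2m (0.58) and Ly6i (0.58), and Ifitm1 to S100a11 (0.49), Ifitm3 (0.47), Gpr171 (0.44), Plbd1 (0.44) and Ass1 (0.42). Ifitm2 was closest to Tmsb4x (0.52), Fxyd5 (0.52), H3f3a (0.48), Rac1 (0.44) and Etfb (0.44), and its r with Ifitm3 was 0.11. Ifitm6 was closest to Aup1, Sh3kbp1 and Prkaa1 (0.52 each) and to Macf1 and U2surp (0.51 each). Several of the genes closest to Ifitm3 within classes, such as the GTPase Irgm2 and the ubiquitin-like conjugating enzyme Ube2l6, are known interferon-induced genes, and Irgm2 is also in the interferon-gamma list used above.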

How the data were processed

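Whole-number UMI counts per gene and cell, deposited by the authors for 5749 cells with tumour, treatment and class names, were the input. Headers of the accompanying gene matrices name Cell Ranger 6.1.1, and mm10 and R 4.1 are named per the submitters' processing notes. The deposited percent of mitochondrial counts reached 5.00. The sources used here do not give clustering settings, or whether the deposited hashtag counts are reads or UMIs. Members and gene lists were chosen with earlier results of these data known.

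Counts were summed per tumour and class (at least 10 cells) and tested with edgeR 4.0.16 (R 4.3.3; TMM, filterByExpr, robust quasi-likelihood test). The 4 groups shared 1 estimate of the spread, a contrast needed 2 tumours in each group, and p-values were adjusted by Benjamini-Hochberg over all genes of a class and contrast. The fit was tested on simulated data. P-values measure the spread between tumours, which the labels do not tie to separate mice, and count intervals cover counting error only. Same-numbered ICB and SD tumours deviated together from their group means (correlations of 0.36, 0.209 and 0.302, each over 0.1), which no other compared groups did for all 3 numbers. The labels give no shared batch or animal for a number. No doublet caller was run. A stricter hashtag rule (top hashtag of at least 10 counts and 3 times the second) kept 5325 cells. Alternatives were DESeq2 1.42.0, RLE size factors, no filter, at least 30 cells, at least 1000 UMIs, a replicate block, 1 library at a time, the counts of the gene matrices and leaving out each tumour. Leaving out cells with shared barcodes was chosen after seeing the data. The text names the members in each class and contrast, up to 4 genes of a list with the smallest p, and the 5 genes closest in pattern to each member.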

Additional observations from a re-analysis of the deposited data

How the results depend on the processing

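Leaving out Ifitm3 in M1 macrophages in contrasts with the BD tumours that chose the family, 7 pairs of member and class or whole tumour were called; 5 remained with DESeq2 (which gave no adjusted p for the other 2, both in NK cells), 7 with RLE size factors, 6 without a filter on low counts, 7 among cells of at least 1000 UMIs, 4 with the stricter hashtag rule, 6 with a replicate block, 7 with the gene matrices and 5 without the cells of shared barcode. The counts that follow include those M1 values and Ifitm3 in whole-tumour sums with BD tumours, with nothing read from them. The share of all gene and class pairs called in each alternative setting is not given beside these counts. DESeq2 called 4 pairs for BD+ICB against BD (2 in the main analysis), 1 for the difference of the diet effects (0) and 3 in whole tumours (1). RLE size factors called 2 in whole tumours. Without the filter the calls were 3 for BD+ICB against ICB (0), 9 for ICB against SD (5), 5 for BD+ICB against BD, 1 for the difference of the diet effects and 2 in whole tumours. With at least 30 cells, 0 of 3 pairs were called for BD against SD (1) and 0 of 7 for ICB against SD, and BD+ICB against BD and the difference of the diet effects had no pair to test. The stricter hashtag rule left 2 calls for ICB against SD. Fitting 1 library at a time gave 0 calls for BD against SD and 0 in whole tumours, and leaving out cells of shared barcode gave 0 in whole tumours. Leaving out 1 tumour at a time gave 0 to 2 calls for BD+ICB against ICB, 0 to 1 for BD against SD, 2 to 8 for ICB against SD, 1 to 5 for BD+ICB against BD, 0 to 1 for the difference of the diet effects and 0 to 3 in whole tumours, where an arm left with 1 tumour is assumed to vary like the other groups. Ifitm6 in Cxcr2+ neutrophils, BD+ICB against BD, went from -3.07 to 6.07 without BD replicate 2, the extreme of a leave-one-out range that began at -4.02. The 2 BD tumours of this class stood at 0 and 642 CPM of Ifitm6, with a UMI in a mean of 3.33% of cells. The Ifitm3 level of Vcan+ monocytes, 11.74 as mean log2(CPM + 1), was 11.56 in the 1 tumour without blockade. The cause of these changes was not tested.

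With a replicate block the calls were 2 for BD+ICB against ICB, 5 for ICB against SD, 3 for BD+ICB against BD, 1 for BD against SD, 0 for the difference of the diet effects and 2 in whole tumours. These counts again include Ifitm3 in M1 macrophages and in whole tumours in the contrasts with BD tumours, and nothing is read from those values. Deviations from group means over 7759 genes had correlations of -0.196 to 0.364 in the 18 pairs of tumours with the same number, 11 of them over 0.1, and of -0.474 to 0.289 in the 36 other pairs, 7 of them over 0.1. By these the numbers paired the ICB and SD tumours and no other groups compared, and for ICB against SD the block changed no call other than Ifitm3 in NK cells, Ifitm3 in the DC _other class and Ifitm2 in whole tumours. Depth limits the NK cell calls, which rest on 1 to 56 UMIs per tumour, and Ifitm3 in Cxcr2+ neutrophils, with 18 and 10 UMIs in the BD tumours. Whole tumours were not run with at least 30 cells.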
